A study of Gallus gallus with 6 samples.

Results

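Genes with names beginning ZNF or ZBTB encode proteins with zinc fingers, which were examined here as one family in chick lens cells. The members were all loci of the deposited RNA-seq table with a gene name made of ZNF or ZBTB followed by a digit, and this rule gave 116 of the 17340 loci, 84 with a ZNF name and 32 with a ZBTB name. The rule uses names and no expression values, but the family was chosen with earlier results of these data known. The cells were primary lens epithelial cells from White Leghorn chick embryos at embryonic day 10, grown on mouse laminin in serum-containing medium. The first group was 3 libraries from cells kept for 4 h with dimethyloxalylglycine (DMOG) at 1 mM, and the second group was 3 libraries from Untreated cells of the same kind. No genetic change is described for either group, and the libraries were stranded total RNA libraries. DMOG competes with 2-oxoglutarate, so it blocks the prolyl hydroxylases that mark HIF1α for destruction but also other enzymes that use 2-oxoglutarate, and these actions cannot be told apart with this agent.

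Most of these proteins carry zinc fingers of the C2H2 kind, in which a pair of cysteines and a pair of histidines hold a zinc ion and rows of such fingers read DNA sequence. In ZBTB proteins the fingers follow a BTB domain, which pairs the proteins with each other and recruits corepressors such as BCOR. Some ZNF proteins instead act in chromatin complexes, in ribosome assembly, in mRNA handling or on the mitotic spindle, and family names therefore do not fix a function. One locus, ZBTB8OS, met the rule by name only, since it encodes archease, a cofactor of tRNA ligation, on the strand opposite ZBTB8 genes. It was kept among the 116 loci but was not counted with the ZBTB family.

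Values are FPKM, fragments scaled by transcript length and by the mapped fragments of the library, so levels of different loci can be set side by side. Of the 116 loci, 99 had a mean of at least 1 FPKM over the 6 libraries and were tested, together with the other loci that reached this mean, 9816 in all. The tested members were of low to moderate abundance, with means between 1.01 and 19.2 FPKM and a median of 4.98 FPKM, against a median of 5.94 FPKM for all tested loci. The most abundant was ZNF593, a factor of large ribosomal subunit maturation, at a mean of 19.2 FPKM. It was followed by ZNF622, which acts in the same pathway, at 18.1 FPKM, ZNF654 at 17.7 FPKM and ZNF706 at 17.3 FPKM. The most abundant ZBTB locus was ZBTB33, which encodes the methyl-CpG binding repressor Kaiso, at 14.4 FPKM. A name joining several genes was carried by 11 member loci, 10 of them tested, and reads of the joined genes cannot be told apart at these loci.

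The treatment was visible in EGLN3, a HIF1α target that encodes a prolyl hydroxylase, with 57.15, 54.04 and 47.61 FPKM in the DMOG libraries and 1.35, 2.06 and 1.87 FPKM in the Untreated libraries. BNIP3L, the control transcript of the study, had 70.17, 65 and 32.55 FPKM with DMOG and 19.14, 25.3 and 26.91 FPKM in Untreated cells. VEGFA had 12.32, 15.35 and 7.17 FPKM with DMOG and 3.72, 3.17 and 4.67 FPKM in Untreated cells. Among the DMOG libraries, each of these genes was lowest in library 3. The limma adjusted p by Benjamini-Hochberg was 4.39e-04 for EGLN3, 0.329 for BNIP3L and 0.210 for VEGFA. Lens markers had 17 of 19 matched genes at a mean of at least 1 FPKM, and their sum was 1378 to 2178 FPKM in DMOG libraries and 1450 to 2400 FPKM in Untreated libraries. The erythroid markers HBA1, HBBA, HBE1 and HBZ, the mesenchymal markers LUM, PRRX1 and TWIST1 and the pigment cell marker PMEL were listed at 0 in every library. A mean of at least 1 FPKM was reached by 1 of 5 matched erythroid markers, whose list summed to 8.12 to 11.6 FPKM in DMOG libraries and 10.0 to 12.9 FPKM in Untreated libraries. It was also reached by 1 of 7 mesenchymal markers (sums 1.30 to 2.56 FPKM in DMOG libraries and 2.28 to 3.23 FPKM in Untreated libraries) and by 1 of 6 retinal and pigment markers (sums 2.16 to 5.02 FPKM in DMOG libraries and 2.39 to 3.57 FPKM in Untreated libraries). Of 6 matched endothelial and immune markers, 4 had a mean of at least 1 FPKM, and their sum was 14.6 to 17.5 FPKM in DMOG libraries and 18.3 to 23.3 FPKM in Untreated libraries. The part of these cells in the results was not tested. Small RNA loci, meaning microRNA and Rfam-named loci, held 24.8%, 33.3% and 37.4% of all FPKM in DMOG libraries 1 to 3 and 28.7%, 24.0% and 26.7% in Untreated libraries 1 to 3. The libraries did not separate by treatment in their overall profile, since correlations across tested loci ran between 0.810 and 0.899 within a group and between 0.820 and 0.893 across groups.

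The first comparison asked whether the family moved when DMOG was added, and whether it moved more than loci of the same abundance. The limits of the study were a log2 fold change of 0.60 or more, up or down, together with a p under 0.05 before adjustment. At these limits 7 of 99 members were lower with DMOG, which is 7.07%, and 0 were higher. In bulk libraries such as these, fewer cells of a type and less RNA per cell cannot be told apart. Of all tested loci, 4.97% were lower and 2.84% higher at these limits, and among loci of the same mean FPKM as the members the shares were 5.52% lower and 2.70% higher. The 7 were ZNF76, ZNF462, ZNF518B, ZNF592, ZBTB6, ZNF207 and ZNF131. The share of lower members thus lay near the background, and no member was on the higher side. Without DMOG library 1 the count was 11 lower, with 7.89% of all loci lower, and 1 higher (ZBTB39), with 2.38% of all loci higher. Without Untreated library 2 the count was 4 lower, with 3.74% of all loci lower, and 0 higher, with 2.24% of all loci higher. Without DMOG library 3 or Untreated library 3, ZNF395 was higher, with 4.02% and 3.85% of all loci higher. After Benjamini-Hochberg adjustment over the 9816 loci in limma, 0 members had an adjusted p under 0.05, the smallest being 0.305, whereas 19 of all tested loci had one, which is 0.194%. A p under 0.05 before adjustment, whatever the fold change, was found for 10 of 99 members and for 883 of all tested loci, or 9.0%. Statements below that a member was lower rest on the study's limits and did not survive this adjustment.

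Most members had a log2 fold change below 0, 74 of 99 or 74.7%, against 63.7% of all tested loci and 65.2% of loci at the same level. The median log2 fold change of the tested members was -0.21, with quartiles of -0.53 and -0.01, and that of all tested loci was -0.13. When each member was set against the median of loci at its own mean FPKM, the median difference was -0.02 and 57 of 99 members lay below their level, as do 50.0% of all tested loci by the way the level is set. That difference was -0.12 without DMOG library 3, -0.10 without Untreated library 2 and -0.14 without Untreated library 3. In 17 members, or 17.2%, every DMOG library was below every Untreated library, against a background of 11.4% of all tested loci and 12.05% at the same level. In 0 members was every DMOG library above every Untreated library, against 4.47% of all tested loci and 4.16% at the same level. With the median of each library brought to the same value, the median of all loci moved to -0.01 and that of the members to -0.10. Members below 0 were then 58 of 99, or 58.6%, against 51.2% of all tested loci. Under that scaling 3 members were lower (ZNF76, ZNF462 and ZNF518B) and 1 was higher (ZNF395), with 3.29% of all loci lower and 4.21% higher.

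The comparison with other loci was also made within classes of abundance, and the differences between classes were not tested. Among the 17 members with a mean of 10 FPKM or more the median log2 fold change was -0.21, and among other loci of that class it was -0.07. In this class 2 members were lower, 11.8%, against 2.87% of the other loci. The class has no upper bound, and its members reached 19.2 FPKM while its other loci reached 22461 FPKM, so abundance was not matched within it. In the class from 5 to 10 FPKM, the 31 members had a median of -0.12 and the other loci -0.15. There 2 members were lower, 6.45%, against 6.47% of the other loci. In the class from 2 to 5 FPKM, the 39 members had a median of -0.18 and the other loci -0.17. There 3 members were lower, 7.69%, against 5.86% of the other loci. The 12 members between 1 and 2 FPKM had a median of -0.29 and the other loci -0.19, and none of these 12 passed the limits. Of the other loci in that class, 4.81% were lower and 1.47% higher. The difference in median between members and other loci was therefore of varying sign. It was widest in the lowest and the highest class, the highest being the class not matched in abundance. The scatter between replicates, as the median SD within groups on the log2 scale, was 0.393 for the members and 0.400 for loci of the same level.

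**Figure D1:**
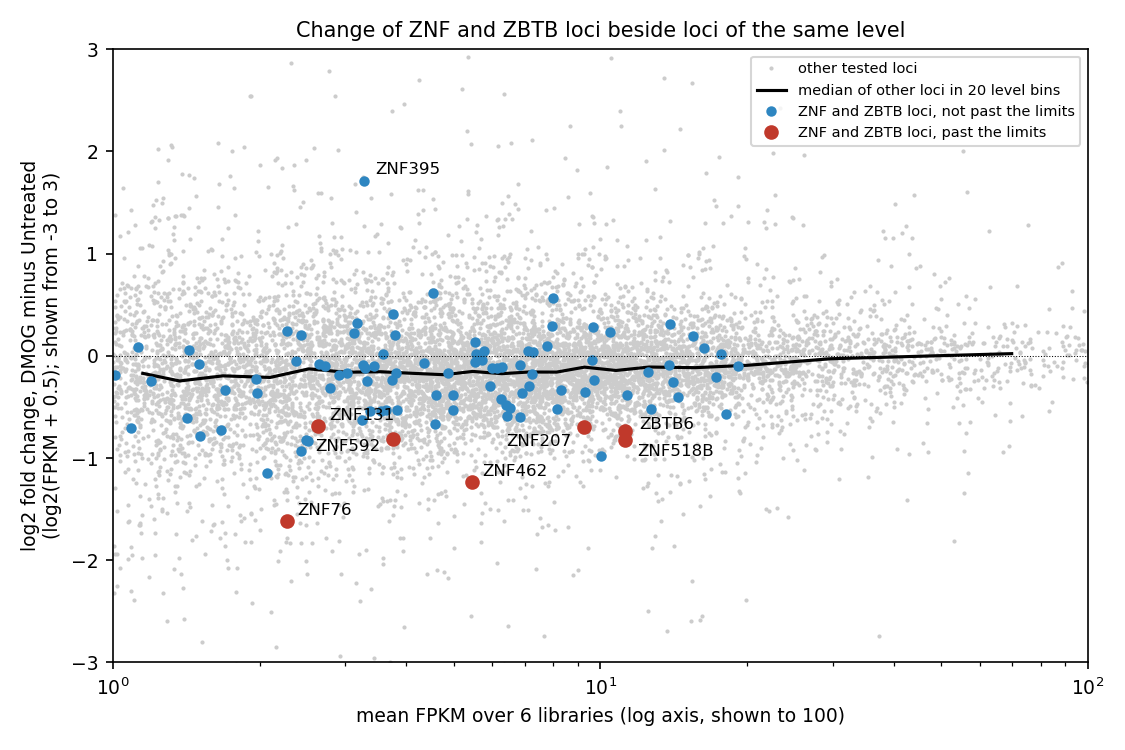
Log2 fold change (DMOG minus Untreated, on log2(FPKM + 0.5)) against mean FPKM of the 6 libraries on a log axis, for the 99 tested ZNF and ZBTB loci (large points, red where past the limits) and other tested loci (grey), with the median of the other loci in 20 level bins as a line. The 7 red points passed the limits on the lower side and lie below the line by that choice, while the other members scatter on both sides of it.

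The ZBTB family was considered first. It was taken by name, without ZBTB8OS, so ZNF131, which has a BTB domain, is given below with the remaining loci. The family had 31 loci, of which 29 were tested, and their median log2 fold change was -0.25. Of these, 24 of 29 were below 0, or 82.8%, against 63.7% of all tested loci. In all, 1 of the 29 was lower past the limits, or 3.45%, against 4.97% of all tested loci, and 0 were higher, against 2.84%. In 2 of the 29, ZBTB1 and ZBTB37, or 6.90%, every DMOG library was below every Untreated library, against 11.4% of all tested loci. With the libraries scaled to the same median, 19 of 29 were below 0, the list median was -0.13 and 0 passed the limits. Of all tested loci, 51.2% were below 0 under that scaling, 3.29% were lower past the limits and 4.21% higher. Without DMOG library 3 the loci lower were 3 (ZBTB5, ZBTB6 and ZBTB46), and without Untreated library 3 they were 2 (ZBTB6 and the joined locus of ZBTB43 and ZBTB34). Of all tested loci, 5.28% and 3.90% were lower in these fits. The locus past the limits with all libraries was ZBTB6, which had 7.88, 5.77 and 11.66 FPKM in the DMOG libraries, against 13.55, 17.00 and 11.58 FPKM in the Untreated libraries. DMOG library 3 stood at the level of Untreated library 3, so the groups overlapped. The log2 fold change of ZBTB6 was -0.74 (SE 0.29, limma adjusted p = 0.520 by Benjamini-Hochberg). Without DMOG library 1, DMOG library 2, Untreated library 1 or Untreated library 2 ZBTB6 no longer passed the limits, with log2 fold changes between -0.76 and -0.51. Its neighbour in the RefSeq GRCg7b gene order, ZBTB26, had 10.96, 9.31 and 15.35 FPKM with DMOG and 11.62, 16.07 and 11.91 FPKM in Untreated cells, with a log2 fold change of -0.16 (SE 0.25). In both genes DMOG library 2 was the lowest and Untreated library 2 the highest.

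The range of the ZBTB family ran between ZBTB25 and ZBTB39, both of which missed the limits. ZBTB25 had 0.39, 2.09 and 0.70 FPKM in DMOG libraries and 0.88, 4.47 and 3.91 FPKM in Untreated libraries, a log2 fold change of -1.15 (SE 0.63, limma adjusted p = 0.628 by Benjamini-Hochberg). Without DMOG library 2 it was -1.59, and without Untreated library 1 it was -1.74, so that it passed the limits in those fits. Without DMOG library 1 the log2 fold change of ZBTB25 was -0.82, which did not pass. Its values spanned a wide range within each group, and Untreated library 1 lay among the DMOG libraries. ZBTB39 had 2.91, 6.22 and 7.93 FPKM in DMOG libraries and 4.63, 2.82 and 2.69 FPKM in Untreated libraries, a log2 fold change of 0.61 (SE 0.39, limma adjusted p = 0.685 by Benjamini-Hochberg). Here the groups overlapped only in that DMOG library 1 lay below Untreated library 1. Without DMOG library 1 the log2 fold change was 0.99, past the limits, and without Untreated library 1 it was 0.83, which did not pass. Without DMOG library 3 the log2 fold change of ZBTB39 was 0.34.

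None of the most abundant ZBTB loci, ZBTB33, ZBTB2 and ZBTB21, passed the limits. ZBTB33 had 18.35, 9.04 and 10.56 FPKM with DMOG and 15.66, 16.78 and 16.12 FPKM in Untreated cells (log2 fold change -0.41, SE 0.27). The Untreated libraries lay within a narrow band, and DMOG library 1 lay above that band while the other DMOG libraries lay below it. Without DMOG library 1 the log2 fold change of ZBTB33 was -0.70, past the limits, and without DMOG library 2 it was -0.21. ZBTB2 had 14.72, 7.93 and 16.76 FPKM with DMOG and 15.32, 15.63 and 14.23 FPKM in Untreated cells (log2 fold change -0.25, SE 0.29). ZBTB21, which encodes a repressor that pairs with other BTB proteins, had 7.95, 15.47 and 17.77 FPKM with DMOG and 14.98, 15.23 and 11.71 FPKM in Untreated cells (log2 fold change -0.09, SE 0.31). A single DMOG library set the sign in the last pair, since without DMOG library 2 the log2 fold change of ZBTB2 was 0.06 and without DMOG library 1 that of ZBTB21 was 0.25. Well known members of the family did not pass the limits either. ZBTB16, encoding PLZF, averaged 2.35 ± 0.39 FPKM with DMOG and 3.23 ± 1.41 FPKM in Untreated cells. ZBTB17, encoding the MYC partner MIZ1, averaged 3.43 ± 1.18 FPKM with DMOG and 4.05 ± 0.90 FPKM in Untreated cells (SD, n = 3 each).

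Members that work in chromatin complexes held 3 of the 7 lower loci. All 11 matched genes of this list were tested, 3 were lower (27.3%, against 4.97% of all tested loci) and 0 higher (against 2.84%), and the median log2 fold change was -0.36, against -0.13 for all tested loci. The list was chosen with earlier results of these data known, so its share is a description and was not tested. Without DMOG library 3 the median of this list was -0.15 and 0 of its loci passed the limits. In that fit the median of all tested loci was -0.07 and 5.28% of them were lower. With the libraries scaled to the same median 2 were lower, with 3.29% of all loci lower, and the list median was -0.23. The count lower was 1 in each of the fits with the replicate block, without Untreated library 2 or without Untreated library 3. Of all tested loci, 3.78%, 3.74% and 3.90% were lower in these fits. ZNF518B, a partner of the histone H3 lysine methyltransferase G9a, had 10.24, 8.41 and 5.69 FPKM in the DMOG libraries, against 15.10, 15.38 and 12.65 FPKM in the Untreated libraries. The groups did not overlap, and the lowest value of each group was in its library 3. ZNF518B had a log2 fold change of -0.82 (SE 0.25, limma adjusted p = 0.403 by Benjamini-Hochberg), and without DMOG library 3 it was -0.5997, just short of the limit of 0.60. Its paralog ZNF518A had 9.80, 5.87 and 8.80 FPKM with DMOG and 10.58, 12.13 and 8.67 FPKM in Untreated cells, a log2 fold change of -0.36 (SE 0.25) with overlapping groups. ZNF644, another G9a partner, had 17.29, 18.32 and 14.60 FPKM with DMOG and 16.44, 16.49 and 14.57 FPKM in Untreated cells, a log2 fold change of 0.07 (SE 0.18). Of ZNF518B, ZNF518A and ZNF644, ZNF518B alone passed the limits, and the differences between the genes were not tested.

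ZNF462, which encodes a heterochromatin factor in mouse embryonic stem cells, shares its locus name with the microRNA gga-mir-6565. The locus had 3.85, 3.09 and 1.72 FPKM in the DMOG libraries, against 3.96, 6.83 and 13.26 FPKM in the Untreated libraries. The groups did not overlap, but DMOG library 1 and Untreated library 1 were almost equal, and the Untreated libraries spread over a wide range. This gave a log2 fold change of -1.23 (SE 0.45, limma adjusted p = 0.489 by Benjamini-Hochberg). The locus no longer passed the limits without DMOG library 2, DMOG library 3, Untreated library 2 or Untreated library 3, with log2 fold changes from -1.30 to -0.81. ZNF592 and ZNF687 encode partners of the chromatin reader ZMYND8. ZNF592 had 1.59, 3.98 and 2.46 FPKM in the DMOG libraries, against 5.19, 4.62 and 4.66 FPKM in the Untreated libraries, and its groups did not overlap. Its log2 fold change was -0.81 (SE 0.33, limma adjusted p = 0.537 by Benjamini-Hochberg), and it no longer passed the limits without DMOG library 1 or 3 or any 1 Untreated library, with log2 fold changes between -0.84 and -0.55. ZNF687, named here after its values were seen, had 3.25, 1.35 and 0.76 FPKM with DMOG and 2.65, 2.88 and 4.18 FPKM in Untreated cells, a log2 fold change of -0.84 (SE 0.45, limma adjusted p = 0.620 by Benjamini-Hochberg). In ZNF687, DMOG library 1 was the only one of its group above an Untreated library, and without it the log2 fold change of ZNF687 was -1.27, past the limits. Without DMOG library 3 that value was -0.48. At the upper end of this list, ZNF516 had 10.41, 13.71 and 8.17 FPKM with DMOG and 9.57, 7.79 and 8.42 FPKM in Untreated cells (log2 fold change 0.28, SE 0.24).

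**Figure D2:**
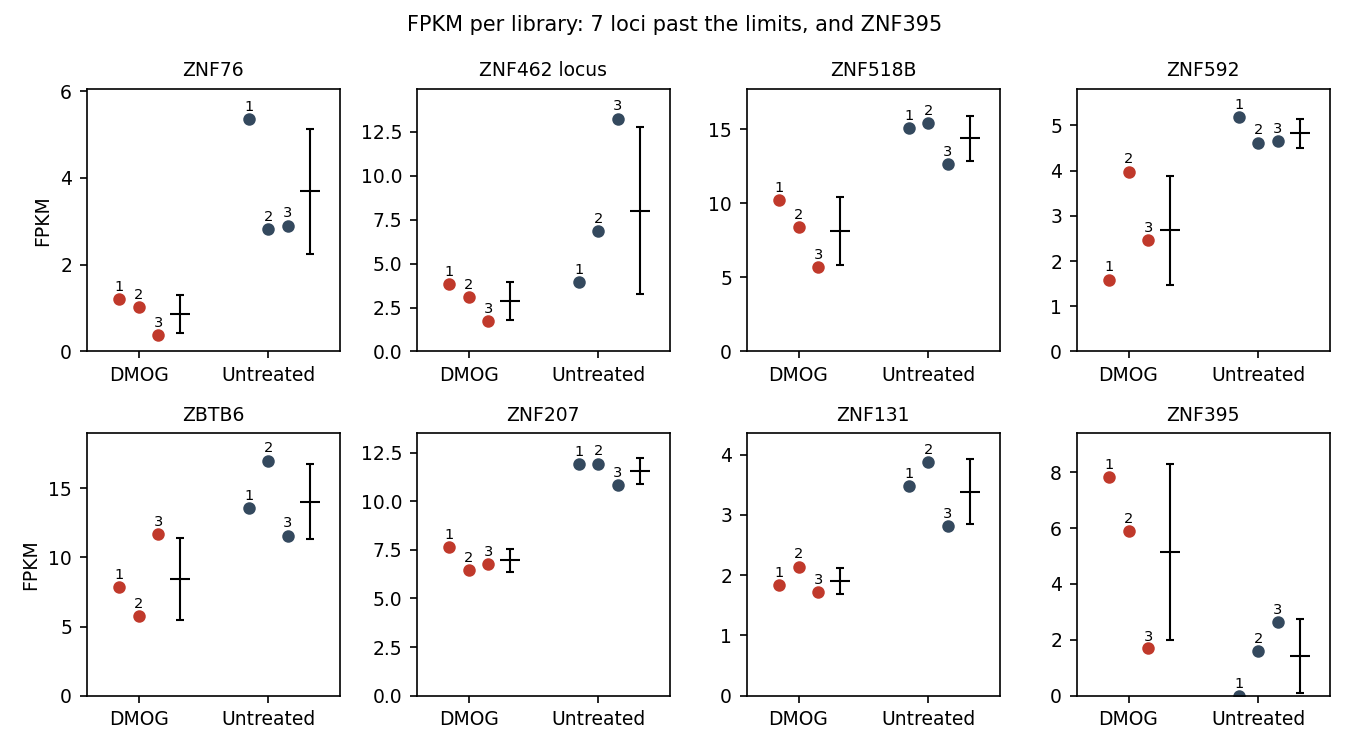
FPKM per library (points, numbered by replicate; DMOG left, Untreated right) with mean and SD (horizontal line and bars, n = 3) for the 7 loci past the limits and for ZNF395. In 6 of the 7 loci all DMOG points lie below all Untreated points, and in ZBTB6 the groups overlap. The 7 were picked by fold change and p in these same libraries, a choice that favours such separation. Of all tested loci, taken without that choice, 11.4% show this separation. In ZNF395 the DMOG points of libraries 1 and 2 lie above all Untreated points.

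The member with the lowest log2 fold change was ZNF76, a paralog of ZNF143, both of which bind promoters of small nuclear RNA genes and of many protein-coding genes. ZNF76 had 1.20, 1.03 and 0.37 FPKM in the DMOG libraries, against 5.35, 2.81 and 2.90 FPKM in the Untreated libraries. The groups were well apart, with the highest DMOG library below the lowest Untreated library by more than the spread of the DMOG group. Its log2 fold change was -1.62 (SE 0.42, limma adjusted p = 0.305 by Benjamini-Hochberg), and it passed the limits in all 15 alternatives computed for it, between -2.04 and -1.32. ZNF143 itself had 6.70, 4.52 and 4.78 FPKM with DMOG and 6.90, 6.58 and 6.19 FPKM in Untreated cells, a log2 fold change of -0.29 (SE 0.23). The groups of ZNF143 overlapped through DMOG library 1, and whether the paralogs differed in their change was not tested.

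ZNF76 and ZNF143 belong to a list of activators and repressors that bind promoters and enhancers, of which 8 loci were matched and tested. In this list 1 was lower (12.5%, against 4.97% of all tested loci), 0 were higher (against 2.84%) and the median log2 fold change was -0.21. With the libraries scaled to the same median 4 of 8 were below 0, against 51.2% of all tested loci, and the list median was -0.08. ZNF410, known for activating the gene of the remodeller CHD4 in human and mouse cells, had the smallest p-value of the members that missed the limits. It had 7.77, 6.08 and 6.03 FPKM in DMOG libraries and 8.99, 10.67 and 9.40 FPKM in Untreated libraries, which did not overlap. The log2 fold change of ZNF410, -0.52 (SE 0.21, limma adjusted p = 0.524 by Benjamini-Hochberg), was smaller than the limit, and without DMOG library 1 it was -0.63, past the limits. Without DMOG library 3 it was -0.46. The locus with the highest log2 fold change of this list was ZNF362, with 3.01, 6.05 and 1.42 FPKM in DMOG libraries and 1.96, 1.75 and 4.56 FPKM in Untreated libraries (0.22, SE 0.52). Its value turned on DMOG library 2, without which the log2 fold change was -0.23.

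Regulators of development and differentiation did not move in 1 direction. Of 12 matched genes 7 were tested and 0 passed the limits in either direction, against 4.97% of all tested loci lower and 2.84% higher. With so few loci, a count of 0 does not set the list apart from those shares. The median log2 fold change was 0.06, which was 0.16 when the libraries were scaled to the same median and -0.02 when loci of at least 5 FPKM alone were kept. Without Untreated library 3 the median was -0.14. The 2 most abundant were ZNF608 and ZNF536, the second of which holds back neural differentiation. ZNF608 had 19.14, 13.89 and 16.84 FPKM in DMOG libraries and 15.47, 12.61 and 15.19 FPKM in Untreated libraries (log2 fold change 0.19, SE 0.20). ZNF536 had 17.80, 17.58 and 10.74 FPKM in DMOG libraries and 11.06, 9.32 and 16.79 FPKM in Untreated libraries (log2 fold change 0.31, SE 0.30). Library 3 stood apart from the other libraries of its group on each side in ZNF536, and the groups overlapped in both genes. ZNF513, known for its part in the retina, had the lowest log2 fold change of this list, -0.53 (SE 0.43), with 1.94, 3.70 and 3.05 FPKM in DMOG libraries and 7.99, 2.50 and 3.78 FPKM in Untreated libraries. Untreated library 1 of ZNF513 was above the other Untreated libraries, which overlapped with the DMOG libraries. ZNF521 and ZNF423, cofactors of EBF proteins, averaged 8.76 ± 2.38 and 1.18 ± 0.26 FPKM with DMOG and 10.6 ± 4.01 and 1.07 ± 0.07 FPKM in Untreated cells (SD, n = 3 each).

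Factors of RNA, ribosomes, the spindle, ubiquitin and SUMO were next. Of 17 matched genes 14 were tested, 1 was lower (7.14%, against 4.97% of all tested loci) and 0 were higher (against 2.84%). A log2 fold change below 0 was found in 13 of 14 (92.9%, against 63.7%), and the median was -0.16, close to the -0.13 of all tested loci. Under median scaling and quantile normalization 8 of 14 were below 0 and 0 passed the limits, at list medians of -0.04 and -0.09. Of all tested loci, 51.2% and 52.4% were below 0 under these scalings. Past the limits, 3.29% and 3.25% of all tested loci were lower and 4.21% and 4.17% higher. Without DMOG library 1 the median was -0.38 and 4 loci were lower (ZNF207, ZNF326, ZNF598 and ZNF622). In that fit the median of all tested loci was -0.17 and 7.89% of them were lower. The locus past the limits with all libraries was ZNF207, which encodes BuGZ, a protein of the mitotic spindle and kinetochore. ZNF207 had 7.64, 6.46 and 6.77 FPKM in the DMOG libraries, against 11.92, 11.94 and 10.81 FPKM in the Untreated libraries. Both groups were tight and well apart, at means of 6.96 ± 0.61 FPKM with DMOG and 11.6 ± 0.65 FPKM in Untreated cells (SD, n = 3 each). ZNF207 had a log2 fold change of -0.69 (SE 0.19, limma adjusted p = 0.328 by Benjamini-Hochberg). The call did not depend on a single library, with log2 fold changes between -0.76 and -0.65 when each was left out. It was lost where the libraries were scaled to the same median, at -0.57, and with quantile normalization, at -0.59, both short of the limit in size.

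The ribosome factors of this list missed the limits. ZNF622, which acts late in large subunit maturation, had 19.60, 11.45 and 12.97 FPKM in DMOG libraries and 24.73, 19.90 and 20.20 FPKM in Untreated libraries. Its groups did not overlap, although DMOG library 1 came close to the Untreated libraries, and the log2 fold change was -0.57 (SE 0.24, limma adjusted p = 0.548 by Benjamini-Hochberg). The value of ZNF622 was -0.79 without DMOG library 1, past the limits, and -0.42 without DMOG library 2. ZNF593 had 23.29, 32.05 and 5.99 FPKM in DMOG libraries and 19.30, 16.09 and 18.40 FPKM in Untreated libraries. DMOG library 3 was far below the other libraries, so that the mean was higher with DMOG, at 20.4 against 17.9 FPKM, while the log2 fold change was -0.10 (SE 0.55). Without DMOG library 3 that value was 0.598, short of the limit. ZNF598, a ubiquitin ligase that marks collided ribosomes, had 12.30, 11.60 and 7.44 FPKM in DMOG libraries and 13.42, 14.28 and 17.26 FPKM in Untreated libraries, without overlap (log2 fold change -0.52, SE 0.24, limma adjusted p = 0.579 by Benjamini-Hochberg). Without DMOG library 1, ZNF598 was among the loci past the limits.

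ZNF706 also spread widely, with 19.70, 6.04 and 25.89 FPKM in DMOG libraries and 13.34, 21.90 and 16.80 FPKM in Untreated libraries. The resulting log2 fold change was -0.21 (SE 0.50), and without DMOG library 2 it was 0.40. ZNF346, which binds double-stranded RNA, had the lowest log2 fold change of the RNA and ribosome list, -0.82 (SE 0.77), with 2.29, 4.19 and 0 FPKM in DMOG libraries and 3.23, 2.46 and 2.78 FPKM in Untreated libraries. That value rested on DMOG library 3, where the locus is listed at 0, and without it the log2 fold change was 0.13. ZNF330 was the only locus of this list with a log2 fold change above 0, at 0.21 (SE 0.31), with 3.6, 4.81 and 3.69 FPKM in DMOG libraries and 2.60, 2.85 and 5.19 FPKM in Untreated libraries. In none of these genes did the groups separate.

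The remaining 37 loci, ZBTB8OS among them, had 30 tested, 1 lower (3.33%, against 4.97% of all tested loci) and 0 higher (against 2.84%). Their median log2 fold change was -0.18, which was -0.05 with the libraries scaled to the same median. Without Untreated library 1 or 2 none of them was lower, and without Untreated library 3 there were 2 (ZNF131 and ZNF318). Of all tested loci, 3.34%, 3.74% and 3.90% were lower without Untreated libraries 1, 2 and 3. The locus past the limits with all libraries was ZNF131, which carries a BTB domain despite its name and was not counted with the ZBTB family. ZNF131 had 1.83, 2.14 and 1.72 FPKM in the DMOG libraries, against 3.47, 3.87 and 2.81 FPKM in the Untreated libraries, without overlap. The log2 fold change of ZNF131 was -0.69 (SE 0.28, limma adjusted p = 0.537 by Benjamini-Hochberg). It no longer passed the limits when DMOG library 1, DMOG library 3, Untreated library 1 or Untreated library 2 was left out, with log2 fold changes between -0.67 and -0.60. ZNF512 had 4.02, 3.96 and 3.95 FPKM in DMOG libraries, almost the same value 3 times, and 5.23, 6.89 and 5.93 FPKM in Untreated libraries. Its log2 fold change of -0.53 (SE 0.22, limma adjusted p = 0.539 by Benjamini-Hochberg) was smaller than the limit. ZNF654, among the most abundant members, had 19.22, 15.46 and 18.79 FPKM in DMOG libraries and 17.97, 18.81 and 15.94 FPKM in Untreated libraries, a log2 fold change of 0.02 (SE 0.18). ZBTB8OS had 4.94, 9.35 and 14.72 FPKM in DMOG libraries and 4.13, 10.16 and 4.58 FPKM in Untreated libraries (log2 fold change 0.57, SE 0.46), with overlapping groups.

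A pair of loci in this group was named after their values were seen, because they had large log2 fold changes without passing the limits. ZNF395, described as hypoxia-inducible in human cells, had the highest log2 fold change of all members. It had 7.84, 5.90 and 1.69 FPKM in the DMOG libraries, against 0, 1.6 and 2.65 FPKM in the Untreated libraries. DMOG libraries 1 and 2 were above every Untreated library, while DMOG library 3 lay among them. ZNF395 had a log2 fold change of 1.71 (SE 0.78, limma adjusted p = 0.567 by Benjamini-Hochberg), and it depends on the pseudocount because a library is listed at 0. Without DMOG library 3 it was 2.29, and without Untreated library 3 it was 2.25, past the limits in either case. It missed the limits without Untreated library 1, the library listed at 0, with a value of 0.93. The limits were also missed without DMOG library 1, at 1.33, and without DMOG library 2, at 1.52. ZNF639 had 10.89, 2.82 and 7.76 FPKM in DMOG libraries and 14.99, 11.79 and 12.07 FPKM in Untreated libraries. Its groups did not overlap, and the wide spread of the DMOG group left a log2 fold change of -0.98 with an SE of 0.43 (adjusted p = 0.564 by Benjamini-Hochberg in limma). The log2 fold change of ZNF639 was -1.35 without DMOG library 1, past the limits, and -0.46 without DMOG library 2, short of them.

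**Figure D3:**
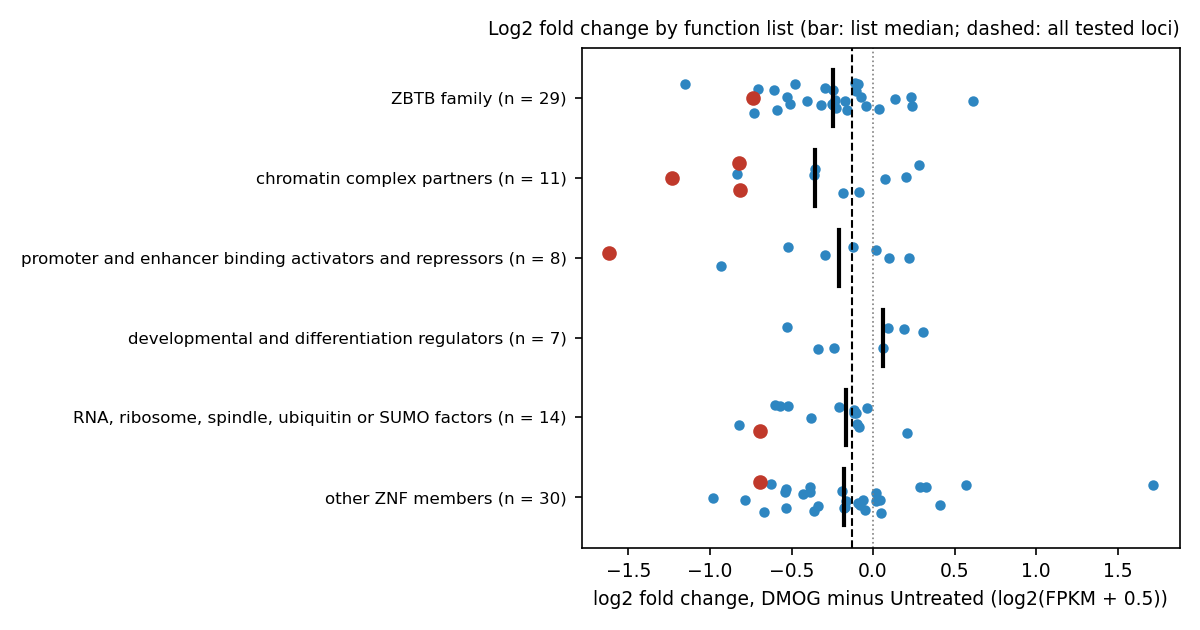
Log2 fold change (DMOG minus Untreated, on log2(FPKM + 0.5)) of each tested ZNF and ZBTB locus (points, red where past the limits) by function list, with the list median as a bar and the median of all tested loci, -0.13, as a dashed line. Red points stand in 5 of the 6 lists, 3 of them among the 11 chromatin complex partners, and none among the 7 developmental regulators. Of all tested loci, 4.97% were lower and 2.84% higher past the limits. The lists were chosen with earlier results of these data known.

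Members that lie beside each other were set side by side. In the protein-coding gene order of RefSeq GRCg7b, 4 pairs of members were adjacent. ZBTB43 and ZBTB34 form a joined locus with a single value, 4.94, 5.26 and 5.31 FPKM in DMOG libraries and 7.95, 10.64 and 5.11 FPKM in Untreated libraries (log2 fold change -0.51, SE 0.29). ZBTB8B and ZBTB8A had log2 fold changes of -0.73 and -0.61, both at means below 2 FPKM and with overlapping groups. ZNF236 and ZNF516 had log2 fold changes of -0.39 and 0.28. Zinc finger repeats resemble each other between genes, and how reads that fit several genes were handled is not given in the sources used here.

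The 17 loci that were not tested had means between 0 and 0.873 FPKM. ZNF703 was listed at 0 in every library. No share over all loci below 1 FPKM was computed, so the counts that follow have no background and are only a description. Of the 17, 11 had a lower mean in DMOG libraries and 3 a higher one. In 3 of them every DMOG library was below every Untreated library, and in 0 was every DMOG library above. These were ZNF341, with 0.72, 0 and 0.03 FPKM in DMOG libraries and 1.32, 1.04 and 1.16 FPKM in Untreated libraries, ZNF692 and ZNF804B. ZNF692 had 0, 0 and 0.34 FPKM in DMOG libraries and 0.46, 0.45 and 0.63 FPKM in Untreated libraries. ZNF804B was listed at 0 in all DMOG libraries and at 0.08, 0.04 and 0.03 FPKM in Untreated libraries, so that no fold is given. With no filter on low values, ZNF341 and ZNF692 passed the limits while ZNF592 and ZNF131 did not.

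Summed over the 116 loci, the DMOG libraries 1 to 3 held 609, 557 and 550 FPKM, against 654, 661 and 671 FPKM in Untreated libraries 1 to 3. Every DMOG library lay below every Untreated library, and DMOG library 1 was closest to the Untreated group. The members took 0.322%, 0.263% and 0.267% of all FPKM in DMOG libraries and 0.353%, 0.389% and 0.331% in Untreated libraries. With small RNA loci left out of the total, the shares were 0.427%, 0.394% and 0.427% in DMOG libraries and 0.495%, 0.512% and 0.452% in Untreated libraries. The groups thus did not overlap on either scale. The median deviation of the tested members from their 6-library mean was -0.02, -0.13 and -0.16 in DMOG libraries and 0.15, 0.15 and 0.20 in Untreated libraries, on the log2 scale. All tested loci gave 0.06, -0.04 and -0.15 in DMOG libraries and 0.04, 0.04 and 0.18 in Untreated libraries. Relative to loci of the same level, the members stood at -0.08, -0.10 and 0.04 in DMOG libraries and 0.09, 0.09 and 0.01 in Untreated libraries. In library 3 of either group the members stood near the loci of their level, and in libraries 1 and 2 they were below them with DMOG and above them in Untreated cells. Loci listed at 0 made up 29.4%, 33.0% and 35.9% of all loci in DMOG libraries and 30.5%, 25.5% and 25.2% in Untreated libraries, and their part in these differences was not tested.

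**Figure D4:**
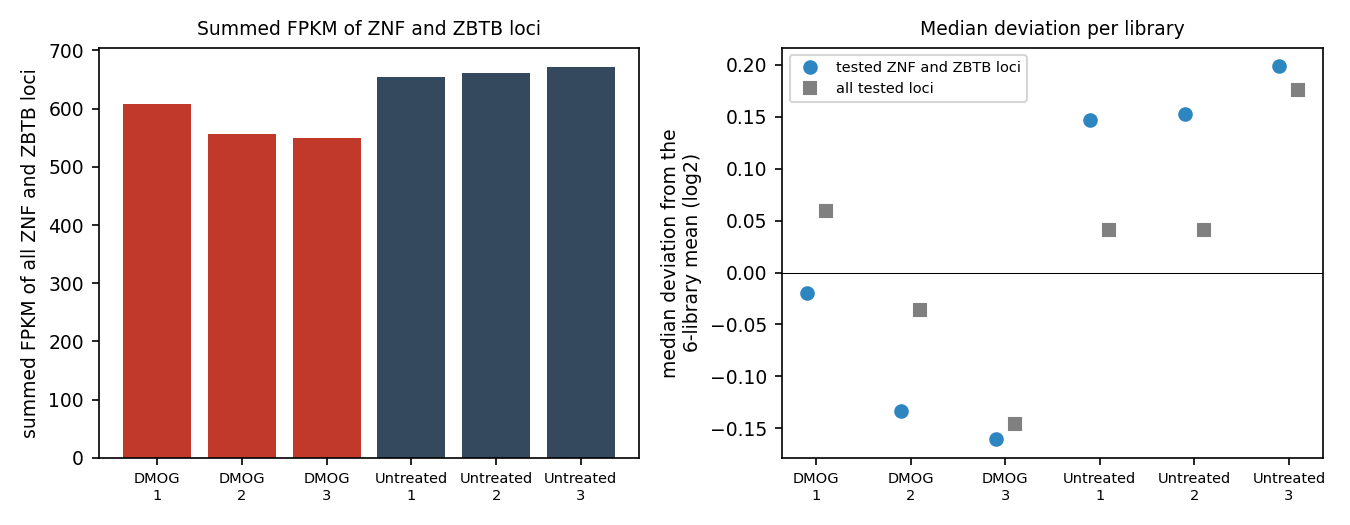
Left, summed FPKM of the 116 ZNF and ZBTB loci in each library (bars). Right, median deviation from the 6-library mean on the log2 scale for the 99 tested members (circles) and all 9816 tested loci (squares). The DMOG sums, 550 to 609, lie below the Untreated sums, 654 to 671, and in libraries 3 of both groups circle and square lie close together.

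Zinc finger factors outside these names, and a list of corepressors and partners of BTB and KRAB zinc finger proteins, were set beside the family. Of 82 matched loci of other C2H2 factors 52 were tested, and 4 were lower (7.69%, against 4.97% of all tested loci) and 3 higher (5.77%, against 2.84%), with a median log2 fold change of -0.24. Without single libraries the counts ran between 2 and 7 lower and between 3 and 4 higher. Of all tested loci, 3.34% to 7.89% were lower and 2.17% to 4.02% higher in those fits. The median of this list was -0.06 without DMOG library 3, -0.10 without Untreated library 3, -0.11 with median scaling and 0.01 with quantile normalization. Loci on the higher side included the repressor gene SNAI1. SNAI1 had 8.66, 8.10 and 9 FPKM in DMOG libraries and 2.80, 2.76 and 3.58 FPKM in Untreated libraries (log2 fold change 1.36, SE 0.22, limma Benjamini-Hochberg adjusted p = 0.0768). KLF11 and KLF2 were the other 2 on that side, at log2 fold changes of 1.00 and 2.25, and VEZF1, PRDM15, ZEB2 and GLIS3 were lower, at -1.51, -0.73, -0.70 and -0.61. Of 22 genes on the corepressor list 3 matched no locus, and TRIM28 was not among the 19 matched and tested. Of these 19 loci, CUL3 among them, 0 were lower (against 4.97% of all tested loci) and 1 was higher (5.26%, against 2.84%). Their median was -0.04, against -0.13 for all tested loci, and their median difference from loci of the same level was 0.12. The corepressor median had no stable sign, at 0.22 without DMOG library 3, 0.03 without Untreated library 2 or 3, 0.08 with median scaling and 0.09 with quantile normalization. There were 2 higher without DMOG library 1, 1 lower beside 1 higher without Untreated library 1, and 0 past the limits with joined loci left out. Of all tested loci, 2.38% were higher without DMOG library 1, and 3.34% were lower and 2.17% higher without Untreated library 1. With joined loci left out, 5.03% of all loci were lower and 2.91% higher. The locus higher with all libraries was the one joining HDAC1, a histone deacetylase of corepressor complexes, with LCK, which had 23.41, 31.65 and 21.83 FPKM in DMOG libraries and 10.26, 11.03 and 8.79 FPKM in Untreated libraries. In neither list did a locus reach an adjusted p under 0.05. The difference between these lists and the members was not tested.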

How the data were processed

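RNA-seq values of 3 DMOG and 3 Untreated libraries, biological triplicates per the study's methods, were analysed. The authors trimmed reads (cutadapt), mapped them to galGal6 (Bowtie2, HISAT2) and assembled transcripts (StringTie), and the deposited table gives FPKM per locus and library. Versions, use of strand and handling of reads that fit several genes are not given in the sources used here. The deposited columns with the authors' own comparison (ratio of FPKM, log2 ratio and p-values, from edgeR) were not used. Read depth per library is unknown. Ratios of low FPKM between a pair of libraries (2531 loci) were examined for steps of whole reads. The bins at ratios of 1 and 2 held 0.574 and 0.606 of their neighbours, and the largest bin 1.82. Equal reads give an FPKM ratio set by the library sizes, so bins at 1 and 2 cannot show whether such steps are present. Precision therefore rests on the spread between replicates.

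All 17340 loci were used, and log2(FPKM + 0.5) was fitted in limma 3.58.1 (R 4.3.3) for 9816 loci whose mean reached 1 FPKM, with treatment as the only term, a mean-variance trend, two-sided tests and Benjamini-Hochberg adjustment over all of them. Fold changes are DMOG minus Untreated on that scale and understate changes of low loci. Loci of the same level were the non-members in 20 bins of equal size by mean log2 value. An exact permutation test of 3 against 3 libraries cannot go below 0.1 and was not used. Summaries were made in Python 3.11.15 (pandas 2.3.3, numpy 2.4.6, matplotlib 3.10.9), and the fit was tested on simulated data. Of 117 member names, 112 matched RefSeq GRCg7b, used only for gene order, since the files use galGal6.

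Named loci were those past the limits, the 10 most abundant, the 3 with the smallest p among those not past the limits, loci listed at 0 throughout one condition with at least 0.3 FPKM in the other (0 found), and the ends and the most abundant locus of each function list. Further loci named to illustrate a family or a pair (paralogs, neighbours, well known factors, untested loci) fall outside that rule and were chosen after their values were seen. The members, lists and tests were chosen with earlier results of these data known. Alternatives were other pseudocounts, filters, bin numbers, scalings, no trend, joined loci left out, a replicate block and leaving out each library.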

Additional observations from a re-analysis of the deposited data

How the results depend on the processing

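Of the 7 lower loci, ZNF76 alone passed the limits in every alternative that tested it (its mean is under 5 FPKM). With a mean of at least 5 FPKM, 48 members were tested, and the count was 4 lower and 0 higher. Of all loci, 4.17% were lower and 3.30% higher in that fit. The count was 3 lower and 1 higher (4 in all) when all libraries were given the same median and with quantile normalization. Of all loci, 3.29% and 3.25% were lower under these scalings, and 4.21% and 4.17% higher. When single libraries were left out, the count was 4 to 11 lower, 0 to 1 higher and 4 to 12 in all. Of all loci, 3.34% to 7.89% were lower and 2.17% to 4.02% higher in those fits. The same 7 passed with a pseudocount of 0.1, 6 of them with a pseudocount of 1, 5 with no filter (ZNF341 and ZNF692 joined), 6 without a trend (ZNF710 joined) and 6 with libraries scaled to their total without small RNA loci, a scaling chosen after seeing the data. Of all loci, 4.88%, 4.82%, 4.78%, 5.49% and 5.42% were lower in these fits, in that order. The share of all loci higher was 2.09% to 2.94%, and 0 members were higher. The member median was -0.101 and -0.0704 under median scaling and quantile normalization and -0.267 to -0.208 when libraries were left out, and the median relative to loci of the same level was -0.139 to -0.0347 then. These medians were below 0 in every alternative. Among all loci past the limits, the share higher with DMOG was 36.4%, and under either scaling it was 56.1% or 56.2%.

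With the replicate block 4 members were lower (ZNF76, ZNF207, ZNF518B and ZNF639) and 0 higher, with 3.78% of all loci lower and 2.29% higher. The deviations of libraries with the same number from their group means correlated at -0.11, -0.17 and -0.23, so no shared offset was seen. Whether libraries with the same number came from a common cell preparation is not stated in the sources used here. These correlations cannot decide it, since deviations from a mean of 3 libraries are tied to each other.

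Signs turned at loci that did not pass the limits. With median scaling the log2 fold change was 0.025 for ZNF593 and 0.039 for ZBTB21. When single libraries were left out, the range was -0.565 to 0.598 for ZNF593 (above 0 without DMOG library 3), -0.050 to 0.113 for ZNF654 (below 0 without Untreated library 3 and without DMOG library 1 or 3), -0.607 to 0.399 for ZNF706 (above 0 without DMOG library 2), -0.457 to 0.060 for ZBTB2 (likewise), -0.308 to 0.248 for ZBTB21 (above 0 without DMOG library 1), -0.226 to 0.659 for ZNF362 (below 0 without DMOG library 2) and -1.49 to 0.129 for ZNF346 (above 0 without DMOG library 3). The cause was not tested. With 3 libraries a group and an unknown depth, changes of low loci are uncertain.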
